A study of Mus musculus with 9 samples.

Results

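Endothelial cells (ECs) with more transcripts of sprouting genes than of barrier genes, called tip-like here, were described among the mouse cells of glioblastoma xenografts. A cell was called tip-like when its UMIs (unique molecular identifiers, 1 per captured transcript) of 7 genes of tip cells and of their matrix, Col4a1, Col4a2, Angpt2, Apln, Esm1, Plvap and Lamb1, exceeded those of 6 genes of the blood-brain barrier, Slco1a4, Slco1c1, Abcb1a, Car4, Gkn3 and Mfsd2a. The cell also had to hold UMIs of at least 2 of 8 EC genes (Cldn5, Pecam1, Ly6c1, Egfl7, Itm2a, Esam, Flt1 and Ctla2a), and of at most 1 of Csf1r, Slc1a2 and Rgs5, which mark myeloid cells, astrocytes and pericytes. In all, 360 cells met the rule, out of 2530 ECs and out of 15391 cells with no fewer than 200 genes detected and no more than 30% of UMIs from mitochondrial genes. The reverse excess of barrier genes was seen in 1909 ECs, called barrier-type here, while 160 ECs held no UMI of either set and the rest held the same number of both. The cells were thus chosen by the measured UMIs of these 24 genes, whose values are given as a description and were not tested.

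In the growing vasculature, a tip cell extends filopodia along gradients of VEGF, and the stalk cells behind it divide and form the lumen. Tip cells secrete angiopoietin-2 (Angpt2), apelin (Apln) and endocan (Esm1), degrade and rebuild the basement membrane, and are held apart from stalk cells by Notch signalling. In the adult brain, most capillary ECs are quiescent and carry the transporters and tight junctions of the blood-brain barrier.

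Drop-seq, in which each cell meets a barcoded bead inside a droplet, had been run on 9 samples of mouse cells. The hosts were female athymic nude mice, which lack mature T cells, so all groups share that immune background. Group Nu-NB is 1 normal brain of such a mouse, and 7 samples are untreated patient-derived orthotopic xenografts (PDOXs) of glioblastoma organoids in the right frontal cortex, named P3, T16, P13, P8, T101, T192 and T233. Group P3TMZ is 1 P3 xenograft after temozolomide, an alkylating drug, given by gavage. The study ascribes stronger angiogenic features to P3, T16 and P13 and calls the others more invasive, while it elsewhere places the growth of P3 between both kinds, and the comparisons of 3 PDOXs, called angiogenic here, with the rest follow the first of these. T192 and T233 came from the same patient. FACS was used to isolate the mouse cells of P8 and Nu-NB, and magnetic beads (MACS) those of the other samples. Each xenograft is 1 library, so p-values measure the spread between xenografts.

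Total UMIs ran from 1294068 to 8410580 per library. No tip-like barcode sequence occurred as a tip-like cell in 2 libraries, and 1 of them also passed the filters in another library. P13 stood apart in depth, with a median of 3667 UMIs per tip-like cell against 476 to 1310 in the other 4 PDOXs with at least 10 such cells. Tip-like cells were deeper than barrier-type cells of the same PDOX in 4 of these 5, by 1.67 times in P8, 1.85 in T101, 2.01 in T16 and 3.43 in P13, and shallower in P3, at 0.758 times. Over the 5 PDOXs, the ratio was 1.75 (geometric mean, exact sign-change permutation p = 0.125, two-sided, where 0.0625 is the smallest that 5 PDOXs allow).

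A pericyte signal also moved with the class. Rgs5, a pericyte gene, reached 10 or more UMIs in 62 of 349 tip-like cells of untreated PDOXs (17.8%), 49 of them in P13, and in 28 of 1751 barrier-type cells (1.60%). The rule allowed this because it counts the 3 exclusion genes, not their UMIs. The 15 mural markers summed to 1498 to 13914 CPM (UMIs scaled to a common total per library) in tip-like cells and 343 to 1981 in barrier-type cells, higher in 5 of 5 PDOXs and highest in the 15 tip-like cells of P8, whose 22 EC identity genes summed to 8224 CPM. The 10 fibroblast markers were also higher in 5 of 5, at 41.5 to 978 against 7.07 to 87.7 CPM, with 198 UMIs of Col1a2 in 52 of 349 tip-like cells and 33 of Dcn in 5, and 4 UMIs each of Col1a1 and Lum. The 12 myeloid markers were higher in tip-like cells in 3 of 5 PDOXs, and P3 stood apart, at 19528 CPM against 6913 in its barrier-type cells, where the tip-like cells of the other 4 held 533 to 3401. The part of this in the values of P3 was not tested. The 11 astrocyte markers were higher in 1 of 5. No doublet caller was run. Main results are also given for cells with at most 1 summed UMI of Csf1r, Slc1a2 and Rgs5, which left 32 of 35 tip-like cells in P3, 68 of 89 in T16 and 118 of 187 in P13.

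Of the EC genes that chose the cells, given as a description, Flt1, the VEGF receptor that also acts as a decoy, was detected in 81.7% of the 349 tip-like cells and in 81.7% of the 1751 barrier-type cells of untreated PDOXs. Cldn5, the main tight-junction claudin, was detected in 71.1% and 83.7%, and Pecam1, an adhesion molecule of EC junctions, in 56.2% and 36.3%. Ly6c1 was detected in 46.1% and 80.7%, and Itm2a in 62.8% and 77.8%. Egfl7 (64.8% and 48.3%), Esam (65% and 41.7%) and Ctla2a (73.4% and 44.2%) were more frequent in tip-like cells. These shares are pooled and not thinned, 187 of the 349 tip-like cells came from P13, and tip-like cells were deeper in 4 of 5 PDOXs. The part of depth in them was not tested. The label was checked on 22 EC genes outside the rule, which summed to 7300.1 to 8549 CPM in tip-like cells and 7867 to 10283 in barrier-type cells over the 5 PDOXs, higher in tip-like cells of 1 of 5.

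The name "tip-like" holds less evenly. At least 1 of the secreted tip cell genes Angpt2, Apln and Esm1 was detected in 194 of 349 tip-like cells (55.6%, exact 95% binomial interval 50.2 to 60.9%), and 182 of these also held Col4a1, Col4a2 or Lamb1. Another 152 cells (43.6%) held a UMI of these matrix genes and none of Angpt2, Apln and Esm1, and in 3 cells Plvap was the only gene of the tip set. The share with Angpt2, Apln or Esm1 was 76.4% in T16 (68 of 89), 54.3% in P3 (19 of 35), 51.9% in P13 (97 of 187), 26.7% in P8 (4 of 15) and 20% in T101 (3 of 15). In P8 and T101 most members thus held none of the secreted tip cell genes, and the tip cell name rests there on 4 and 3 cells.

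Members also differed in how far they passed the threshold. The 75 tip-like cells of untreated PDOXs just inside it (1 UMI more of the tip set) held on average 2.76 UMIs of the tip set and 1.76 of the barrier set. Just outside, 98 cells with equal counts averaged 2.22 of each, and 217 cells with 1 UMI more of the barrier set averaged 0.724 of the tip set and 1.72 of the barrier set. At the other end, 180 of 349 tip-like cells (51.6%) passed by 5 or more UMIs, 71.1% in P13 and 17.1% in P3, and 102 cells (29.2%) held no barrier-set UMI at all.

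Col4a1 and Col4a2, which encode the chains of the collagen IV network of every basement membrane, were the genes of the tip set most often detected in tip-like cells. They lie head to head on mouse chromosome 8, and their RefSeq promoter windows (GRCm38.p6, 250 bases before to 50 after the start) share 78 bases. The window of Col4a2, chr8:11312555-11312854 on the plus strand, is printed because the starts of both genes, which are read in opposite directions, lie in it, and capitals mark the stretch chr8:11312777-11312854 shared with the window of Col4a1, chr8:11312777-11313076 on the minus strand.
Col4a2 promoter: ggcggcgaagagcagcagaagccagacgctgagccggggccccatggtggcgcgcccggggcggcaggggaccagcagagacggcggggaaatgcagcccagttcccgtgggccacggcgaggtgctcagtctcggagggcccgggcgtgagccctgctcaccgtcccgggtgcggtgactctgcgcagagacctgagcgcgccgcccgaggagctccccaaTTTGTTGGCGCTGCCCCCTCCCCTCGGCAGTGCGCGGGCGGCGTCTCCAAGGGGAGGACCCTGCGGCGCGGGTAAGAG
Searched on both strands, this window holds the CCAAT box in 1 place, on its own strand, and the GC box (GGGCGG) in 3, of which 1 is on the other strand. Of 32851 RefSeq promoters, 37.4% hold the former and 35.7% the latter. The TATA box TATAAA (13.6% of promoters) was not found in this window, nor in those of Col4a1, Lamb1, Apln and Esm1. Nor was the core of hypoxia response elements, ACGTG (19.6% of promoters). No match overlapped another in the printed window. Across the 2341 ECs of untreated PDOXs, Col4a1 was detected in 56.9% of cells with Col4a2 and in 19.4% of cells without it, a pooled value. Within PDOXs it was 68.6 against 23.8% in P13 and 60 against 21.9% in T16, and 33.3 to 47.6% against 10.3 to 22.3% in P8, T101, T192 and P3, while T233 had 8.33 against 11.3%. The part of cell depth in this was not tested.

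In tip-like cells, Col4a1 was detected in 73.3% of cells in P8, 66.7% in T101, 54.3% in P3, 78.7% in T16 and 92.5% in P13. Col4a2 followed, with 73.3% in P8, 80% in T101, 54.3% in P3, 62.9% in T16 and 89.8% in P13. Neither gene is particular to this class, since 25 to 29.2% of barrier-type cells in P8 and P13 held Col4a1. Over the untreated PDOXs the shares were 82.2% of tip-like cells (median 1991 UMIs), 23% of barrier-type cells (median 745), 33.7% of 822 mural cells (median 1184) and 4.03% of 4494 myeloid cells (median 954), a type that should lack it. The part of free RNA and of doublets in the myeloid share was not tested. P13, which gave 187 of the 349 tip-like cells, had higher shares in the other types too, at 10.9% of its 959 myeloid and 50.9% of its 289 mural cells. With every cell thinned to 500 UMIs, which leaves out 41 tip-like and 510 barrier-type cells, they were 50.3%, 13.1%, 19.7% and 1.93%. Lamb1, the laminin beta-1 chain, was found in 53% of tip-like cells, 19.1% of mural cells, 4.05% of barrier-type cells and 2.8% of myeloid cells, and after thinning in 22.4%, 8.6%, 1.53% and 0.803%.

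The secreted tip cell genes were rarer and differed between PDOXs. Angpt2, the ligand that opposes angiopoietin-1 at the Tek receptor, was detected in 13.3% in P8, 13.3% in T101, 51.4% in P3, 39.3% in T16 and 34.8% in P13. Apln, the ligand of the apelin receptor, was detected in 20% in P8, 6.67% in T101, 40% in P3, 55.1% in T16 and 38.5% in P13. Both shares were higher in each of P3, T16 and P13 than in P8 and T101, but this order did not hold at equal depth or by level. In cells thinned to 500 UMIs, Angpt2 was in 2 of 12 cells of P8 (16.7%), 0 of 12 of T101, 7 of 16 of P3, 21 of 77 of T16 (27.3%) and 24 of 187 of P13 (12.8%), and Apln in 16.7%, 0%, 37.5%, 33.8% and 14.4%. Summed over tip-like cells, Angpt2 was at 845 CPM in P8, 82.9 in T101, 554 in P3, 434 in T16 and 206 in P13, and Apln at 1245, 124, 586, 897 and 323. Their shares in myeloid cells were 0.801% and 0.623%. Esm1, a secreted proteoglycan of tip cells, was found in 11.8% of tip-like cells, in 0.371% of barrier-type cells and in 0 of 784 mural cells of the 6 PDOXs whose table lists it.

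Plvap, which forms the diaphragms of fenestrated and leaky vessels, was rare. It was detected in 0 of 35 tip-like cells of P3 and 0 of 89 of T16, the latter allowing a share of cells with a UMI of up to 4.06% (upper bound of the exact 95% binomial interval). In P13 it was found in 30 of 187, in P8 in 5 of 15 and in T101 in 1 of 15. Cells of P13 were the deepest, and thinned to 500 UMIs 11 of its 187 (5.88%) held Plvap, as did 3 of 12 in P8 and 1 of 12 in T101. Summed over tip-like cells, Plvap reached 711 CPM in P8 and 76 in P13. In barrier-type cells it was seen in 4 of 1751 cells.

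**Figure D1:**
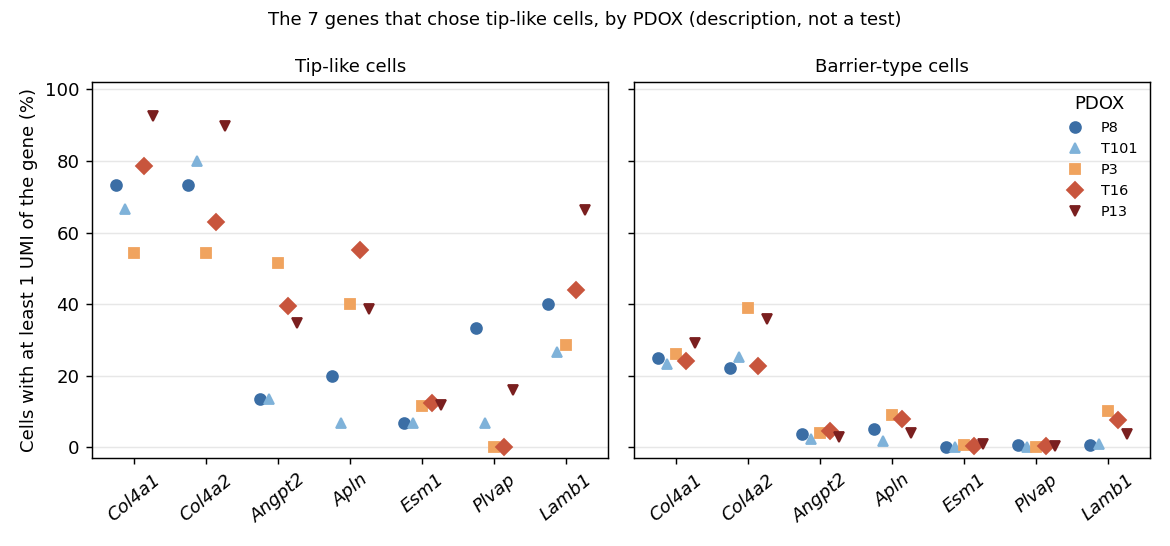
Share of cells with at least 1 UMI (%, y axis) of each of the 7 genes used to choose tip-like cells (x axis), in tip-like cells (left) and barrier-type cells (right) of the 5 PDOXs with at least 10 tip-like cells, 1 symbol per PDOX. Col4a1 and Col4a2 lie at 54.3 to 92.5% in tip-like cells, and Plvap is at 0 in P3 and T16. Cells are not thinned here, and at 500 UMIs per cell P13 fell below P8 for Angpt2 and Apln.

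The share of tip-like cells among ECs was highest in the angiogenic models. It was 187 of 630 (29.7%, interval 26.1 to 33.4%) in P13, 89 of 571 (15.6%, interval 12.7 to 18.8%) in T16 and 35 of 243 (14.4%, interval 10.2 to 19.5%) in P3, all intervals being exact 95% binomial ones that cover counting error only. Among the more invasive models it was 15 of 172 (8.72%, interval 4.96 to 14%) in P8, 15 of 275 (5.45%, interval 3.08 to 8.84%) in T101, 7 of 297 (2.36%, interval 0.953 to 4.8%) in T192 and 1 of 153 (0.654%, interval 0.0165 to 3.59%) in T233. The groups did not overlap, although the interval of P8 overlapped those of P3 and T16. The mean was 19.9% ± 8.5 (SD, n = 3) in P3, T16 and P13 and 4.30% ± 3.56 (SD, n = 4) in the others, a difference of 15.6 percentage points (two-sided exact permutation test over 35 splits, p = 0.0286, the smallest this design allows).

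Counted per 100 cells that passed the filters, the difference was 4.45 percentage points (exact permutation p = 0.0286). It was 17.1 points over the 6 PDOXs sorted by MACS, and with T192 and T233 taken as 1 value 14.7 points, where 3 against 3 allows no exact permutation p below 0.1. Restricted to cells with at least 500 detected genes it was 16.4 points (exact permutation p = 0.0571), so the call was lost. With all cells thinned to 500 UMIs before the rule was applied, the share in P13 went from 29.7% to 19.5% and the difference to 12.6 points (exact permutation p = 0.0286). In cells with at most 1 summed UMI of the exclusion genes it was 15.5 points (exact permutation p = 0.0286). Without P3 it was 18.3 points, where 2 against 4 allows no exact permutation p below 0.0667.

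**Figure D2:**
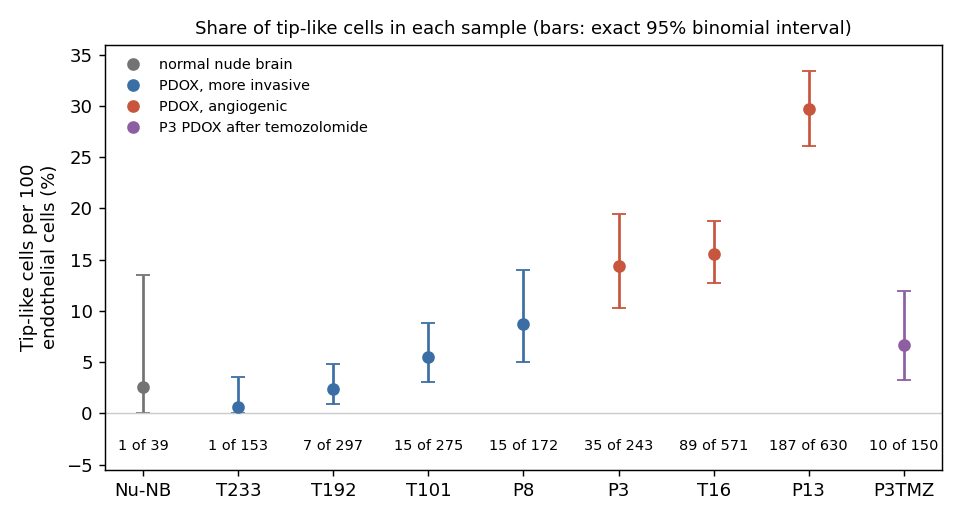
Tip-like cells per 100 ECs (%, y axis) in each sample (x axis), with exact 95% binomial intervals as bars and the counts under each point. P3, T16 and P13 lie at 14.4 to 29.7%, above the 4 more invasive PDOXs at 0.654 to 8.72%.

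In the normal nude brain, 1 of 39 ECs was tip-like (2.56%, interval 0.0649 to 13.5%), a cell with 1 UMI of Col4a2 and none of the other 6 genes of the tip set. The median of the 7 untreated PDOXs was 8.72%, which is 6.16 points higher. This gap was 2.61 points with at least 3 EC genes per cell, 3.49 with at most 1 summed UMI of the exclusion genes, 10.2 in cells thinned before the rule was applied and 12.6 with at least 500 detected genes. The interval of the normal brain contains the shares of the 4 more invasive PDOXs. With 1 normal brain there was no test, and its sort (FACS) cannot be told apart from the condition against the 6 MACS-sorted PDOXs.

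Tip-like and barrier-type cells were then compared within PDOXs, on UMIs summed per PDOX and class, in the 5 PDOXs with at least 10 cells of each (edgeR quasi-likelihood test with PDOX as a block). Of 2912 genes tested besides the 24 of the rule, 30 (1.03%) were higher and 86 (2.95%) lower in tip-like cells at a Benjamini-Hochberg adjusted p of at most 0.05. In all, 116 (3.98%) were called, and 133 (4.57%) were higher and 270 (9.27%) lower in every PDOX. Among them, Lamc1, Lama4 and Nid2 were higher and Slc6a6, Bsg and Cxcl12 lower. The counts per list below are to be read against these shares of all genes. Signs are to be read against the 48.8% of the 2912 genes with a log2 fold change above 0. A single call in a short list is hard to set apart from this background. Levels are given as CPM after TMM scaling, where 1 UMI equals 42.6 CPM in the summed tip-like cells of P8, 44.8 in T101, 21.0 in P3, 6.07 in T16 and 1.17 in P13.

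Several basement membrane genes rose. Of 14 matrix genes tested, 4 rose (Lamc1, Lama4, Nid2 and Bgn) and none fell, with a median log2 fold change of 0.46 against -0.01 over all 2912 genes. Lamc1, the laminin gamma-1 chain, stood at 341 CPM in P8, 134 in T101, 336 in P3, 206 in T16 and 304 in P13 in tip-like cells. In barrier-type cells it was 82.4 CPM in P8, 47.9 in T101, 127 in P3, 53.2 in T16 and 61.4 in P13. The lowest tip-like value, that of T101, lay above every barrier-type value (log2 fold change 1.94 ± 0.26 (SE, n = 5 PDOXs), adjusted p = 0.000809, edgeR). That value of T101 rests on 3 UMIs and lay close to the barrier-type value of P3, so this separation is narrow.

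Lama4, the laminin alpha-4 chain of vascular basement membranes, reached 895 CPM in P8, 493 in T101, 441 in P3, 631 in T16 and 744 in P13 in tip-like cells. Its barrier-type levels were 172 CPM in P8, 208 in T101, 235 in P3, 242 in T16 and 216 in P13, with no overlap between the classes (log2 fold change 1.55 ± 0.25 (SE, n = 5 PDOXs), adjusted p = 0.00283, edgeR). Nid2, which links laminin to collagen IV, averaged 100.4 ± 39.9 against 34.8 ± 20.4 CPM (SD, n = 5) and was higher in tip-like cells of 5 of 5 PDOXs, on 1 UMI in the tip-like cells of T101 and 2 in those of P8 (log2 fold change 1.76 ± 0.34 (SE, n = 5 PDOXs), adjusted p = 0.00981, edgeR). These 3 genes stayed called in cells without high Rgs5 (at most 1 summed UMI of the exclusion genes), with log2 fold changes of 1.90, 1.62 and 2.18. With no UMI of any mural or fibroblast marker, a fit without T101, which kept under 10 such cells, they were 1.83, 1.52 and 2.10, all still past the threshold.

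Other matrix genes held less well in the stricter cell sets. Bgn, biglycan, a small leucine-rich proteoglycan, averaged 195 ± 92.5 against 58.5 ± 71.5 CPM (log2 fold change 2.09 ± 0.45 (SE, n = 5 PDOXs), adjusted p = 0.0175, edgeR), and with no mural or fibroblast UMI its log2 fold change was 1.39 (adjusted p = 0.107). Mgp, matrix Gla protein, which restrains calcification and binds BMPs, was at 767 CPM in P8, 448 in T101, 441 in P3, 182 in T16 and 2178 in P13 in tip-like cells and 27.5 CPM in P8, 191.7 in T101, 184 in P3, 164 in T16 and 214 in P13 in barrier-type cells (log2 fold change 2.02 ± 0.50 (SE, n = 5 PDOXs), adjusted p = 0.0342, edgeR). In cells with at most 1 summed UMI of the exclusion genes the direction of Mgp turned, to -1.34 (adjusted p = 0.226). In T101 the tip-like value of Bgn rests on 1 UMI, as does that of Aspn. Aspn, asporin, a proteoglycan of connective tissue, was higher in 5 of 5 PDOXs (log2 fold change 2.53 ± 0.44 (SE, n = 5 PDOXs), adjusted p = 0.00483, edgeR), and it was not among the genes that passed the filter on low counts in either stricter set.

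Among 7 genes of collagen processing, 1 rose. Serpinh1, the collagen chaperone HSP47, stood at 256 CPM in P8, 134 in T101, 629.5 in P3, 382 in T16 and 684 in P13 in tip-like cells and 96.1 CPM in P8, 112 in T101, 393 in P3, 199 in T16 and 159 in P13 in barrier-type cells (log2 fold change 1.21 ± 0.29 (SE, n = 5 PDOXs), adjusted p = 0.0278, edgeR), and at most 1 summed UMI of the exclusion genes kept its call (1.02). Sparc, a matrix-binding glycoprotein, was abundant in both classes, at 7829.8 ± 3516 against 5559.5 ± 2697 CPM, with no call (adjusted p = 0.378).

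Genes of sprouting lay above 0, and a few rose. All 15 tested genes of the tip cell and sprouting list had a log2 fold change above 0 (median 0.65), of which 4 passed the test. They were Nid2 and Lama4 (above), Trp53i11 and Fscn1. Trp53i11, a target of p53 named among tip cell genes, was at 426 CPM in P8, 44.8 in T101, 189 in P3, 370.3 in T16 and 203 in P13 in tip-like cells and 0 CPM in P8, 7.99 in T101, 82.5 in P3, 46.5 in T16 and 29.9 in P13 in barrier-type cells, higher in tip-like cells of 5 of 5 PDOXs, though the value of T101 is a single UMI (log2 fold change 2.81 ± 0.43 (SE, n = 5 PDOXs), adjusted p = 0.00181, edgeR). Its call held in the stricter cell sets (2.95 and 2.94). Fscn1, fascin, which bundles the actin of filopodia, was higher in 4 of 5 PDOXs and at 0 in the tip-like cells of P8 (log2 fold change 1.54 ± 0.34 (SE, n = 5 PDOXs), adjusted p = 0.0176, edgeR). Members of this list were picked with earlier results of these cells known, so its direction is no independent evidence.

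The actin list was similar, with 3 of 19 genes higher (Fscn1, Marcks and S100a11), none lower and 18 above 0 (median 0.47). Marcks, which ties actin to the membrane, was at 643 ± 220.1 against 291 ± 83.3 CPM (log2 fold change 1.11 ± 0.22 (SE, n = 5 PDOXs), adjusted p = 0.00974, edgeR). S100a11, a calcium-binding protein, was at 416 ± 157 against 192.1 ± 63.5 CPM (log2 fold change 1.13 ± 0.30 (SE, n = 5 PDOXs), adjusted p = 0.0456, edgeR). With at most 1 summed UMI of the exclusion genes, Fscn1 stayed called (1.59), while Marcks (0.76, adjusted p = 0.169) and S100a11 (0.79, adjusted p = 0.123) lost the call. Among further genes with the largest rises were Lgals1, galectin-1 (1.62), Tspan6, a tetraspanin (1.51), and Clec1a, a C-type lectin receptor of ECs (1.49, log2 fold changes), each higher in 5 of 5 PDOXs, though with 5 UMIs or fewer in the tip-like cells of P8 and of T101.

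Of 11 genes of the VEGF, angiopoietin, apelin and adrenomedullin axis tested, 1 rose and 1 fell. Plxnd1, the endothelial receptor of semaphorin 3E, rose (log2 fold change 1.18 ± 0.31 (SE, n = 5 PDOXs), adjusted p = 0.0478, edgeR). Tek, the angiopoietin receptor, was at 128 CPM in P8, 358 in T101, 83.9 in P3, 91.1 in T16 and 188 in P13 in tip-like cells and 508 CPM in P8, 543 in T101, 159 in P3, 337 in T16 and 421 in P13 in barrier-type cells, lower in 5 of 5 PDOXs (log2 fold change -1.31 ± 0.27 (SE, n = 5 PDOXs), adjusted p = 0.0137, edgeR). Nrp2, a co-receptor of VEGF-C, gave 0.65 (adjusted p = 0.273). Of the 16 Notch genes only 3 were abundant enough to test, and none was called (Hes1 -0.25, Notch1 -0.20, Mfng 0.07).

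Many barrier genes fell beyond the 6 that chose the cells. Of 28 further barrier transport and junction genes tested, 12 were lower and none higher, 27 had a log2 fold change below 0, and the median was -0.95. Slc6a6, the taurine transporter, was at 85.2 CPM in P8, 134 in T101, 21 in P3, 36.4 in T16 and 63.4 in P13 in tip-like cells. In barrier-type cells it was at 446 CPM in P8, 1054 in T101, 247 in P3, 452 in T16 and 481 in P13, and the classes did not overlap (log2 fold change -3.08 ± 0.29 (SE, n = 5 PDOXs), adjusted p = 7.14e-05, edgeR).

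Bsg, basigin, the partner of monocarboxylate transporters at the barrier, fell from 5429 CPM in P8, 5584 in T101, 4719.9 in P3, 4859.6 in T16 and 4925 in P13 in barrier-type cells to 383 CPM in P8, 1030.2 in T101, 1721 in P3, 2113 in T16 and 611 in P13 in tip-like cells (log2 fold change -2.30 ± 0.36 (SE, n = 5 PDOXs), adjusted p = 0.00206, edgeR). The highest tip-like value (T16) was below the lowest barrier-type value (P3). Pltp, phospholipid transfer protein, was at 408 ± 159 against 1335 ± 375 CPM (log2 fold change -1.78 ± 0.26 (SE, n = 5 PDOXs), adjusted p = 0.00133, edgeR). Slc2a1, the glucose transporter GLUT1, was at 170.4 CPM in P8, 493 in T101, 273 in P3, 146 in T16 and 169 in P13 against 508 CPM in P8, 575 in T101, 749 in P3, 330.2 in T16 and 732 in P13, closest in T101 (log2 fold change -1.39 ± 0.29 (SE, n = 5 PDOXs), adjusted p = 0.0135, edgeR). The other called barrier genes were Itih5, Slc22a8 (an organic anion transporter), Spock2, Tfrc (the transferrin receptor), Slc16a1 (a monocarboxylate transporter), Slc39a10 (a zinc importer), Slc9a3r2 and Abcg2 (a drug efflux pump), with log2 fold changes from -2.79 to -1.09. With at most 1 summed UMI of the exclusion genes, Bsg (-2.27), Slc6a6 (-3.23), Pltp (-1.61) and Slc2a1 (-1.18) stayed called.

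**Figure D3:**
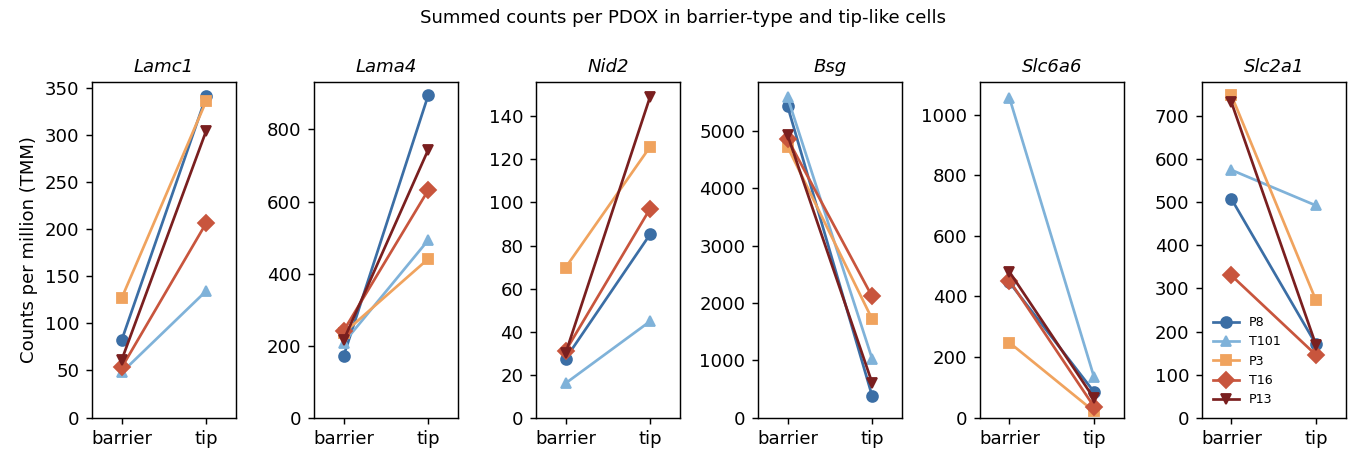
Summed CPM (TMM-scaled, y axis, from 0) in barrier-type and tip-like cells, with 1 line per PDOX. Lamc1, Lama4 and Nid2 were higher and Bsg, Slc6a6 and Slc2a1 lower in the tip-like cells of all 5 PDOXs.

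Cxcl12, Sema3c and Edn3 were among the genes with the largest falls. Cxcl12, the ligand of CXCR4, was at 682 CPM in P8, 44.8 in T101, 21 in P3, 36.4 in T16 and 176 in P13 in tip-like cells and 1277 CPM in P8, 2852 in T101, 539 in P3, 1564 in T16 and 2047 in P13 in barrier-type cells, and P8 had the smallest gap (log2 fold change -3.64 ± 0.53 (SE, n = 5 PDOXs), adjusted p = 0.00141, edgeR). Its call held with at most 1 summed UMI of the exclusion genes (-3.36). Sema3c, a secreted semaphorin, gave only 12 UMIs in the summed tip-like cells of the 5 PDOXs and averaged 375 CPM in barrier-type cells (log2 fold change -4.76 ± 0.51 (SE, n = 5 PDOXs), adjusted p = 0.000136, edgeR). Edn3, endothelin-3, averaged 26.2 ± 19.6 against 231 ± 68.2 CPM (log2 fold change -3.12 ± 0.37 (SE, n = 5 PDOXs), adjusted p = 0.000316, edgeR). Degs2, which acts on sphingolipids, and Ndnf, a secreted trophic factor, had 7 and 9 UMIs in tip-like cells, with log2 fold changes of -5.04 and -4.11, whose size is uncertain at such counts. Ptprr, a tyrosine phosphatase (-3.46), Pcp4l1 (-3.44) and Cd59a, an inhibitor of complement (-2.76), were also lower in 5 of 5 PDOXs.

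Of 9 genes of Wnt and barrier induction, 2 fell, Lef1, a transcription factor of the Wnt pathway (log2 fold change -1.31 ± 0.34 (SE, n = 5 PDOXs), adjusted p = 0.0416, edgeR), and Sox17, an endothelial transcription factor (log2 fold change -1.55 ± 0.33 (SE, n = 5 PDOXs), adjusted p = 0.0157, edgeR), and all 9 lay below 0 (median -0.55). Sox17 was at 0 CPM in P8, 89.6 in T101, 209.8 in P3, 85 in T16 and 69.3 in P13 in tip-like cells and 206 CPM in P8, 328 in T101, 260.1 in P3, 266 in T16 and 241 in P13 in barrier-type cells. Of 10 TGF-beta and BMP genes, 1 fell, against 2.95% over all genes, Id1, a target of BMP signalling (log2 fold change -1.33 ± 0.25 (SE, n = 5 PDOXs), adjusted p = 0.0071, edgeR). Of 21 EC identity genes, 3 fell (Tek, Sox17 and Ptprb, the phosphatase that acts on Tek, at -1.07), none rose, and the median was -0.08. With at most 1 summed UMI of the exclusion genes, Lef1 (-0.86, adjusted p = 0.133) and Ptprb (-0.77, adjusted p = 0.0552) lost the call. Of 13 immediate early genes tested, 1 fell, against the same 2.95%, Klf4, a flow-responsive factor (-1.88, adjusted p = 0.00591).

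Of 9 genes of hypoxia and glycolysis tested, 2 fell, against 2.95% over all genes, Slc2a1 (above) and Ndrg1, a hypoxia-induced gene, and none rose (median 0.04). Ndrg1 was at 128 CPM in P8, 0 in T101, 21 in P3, 0 in T16 and 10.6 in P13 in tip-like cells and 124 CPM in P8, 224 in T101, 108 in P3, 129 in T16 and 454 in P13 in barrier-type cells, lower in 4 of 5 PDOXs (log2 fold change -4.63 ± 0.65 (SE, n = 5 PDOXs), adjusted p = 0.00106, edgeR). Hif1a itself gave 0.44 (adjusted p = 0.527). Among 6 caveolae genes, Cavin2 fell (log2 fold change -2.79 ± 0.51 (SE, n = 5 PDOXs), adjusted p = 0.00655, edgeR), with a higher value in tip-like cells of P8 alone, and 4 of the others lay above 0. Of 14 interferon and MHC class I genes, 1 fell, against 2.95% over all genes, Ly6a, the stem cell antigen Sca-1 (-1.51, adjusted p = 0.0219). None of 15 translation genes, of 10 venous genes, of 9 myeloid markers or of 3 mural markers tested was called (medians 0.29, 0.23, -0.14 and 0.84). Of 3 arterial genes, Mgp (above) was called. No gene was called among the 2 astrocyte, 2 choroid plexus and 1 erythrocyte markers tested, and no fibroblast, oligodendrocyte, neuron or lymphocyte marker was abundant enough to test.

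Several further genes of these lists lay away from 0 without passing the test, and are given by their log2 fold change and adjusted p (edgeR). The endothelial adhesion receptor Adgrf5 (-0.99, 0.0517), the Wnt co-receptor Lrp6 (-1.34, 0.0541) and Ly6e of the interferon list (-0.83, 0.0558) were closest to the threshold. Myl9, a myosin light chain of contractile cells that is both an actin and a mural marker, stood at 1.80 (0.085), and Vtn, vitronectin, a pericyte gene, at 0.84 (0.474). The collagen-modifying enzymes Plod1 and P4hb gave 0.99 and 0.61. The BMP receptor Bmpr2, its effector Smad1 and its target Id2 gave -0.79, 0.77 and -1.02, and the flow-responsive Klf2 gave -1.005. Axin2, a feedback inhibitor of Wnt signalling, gave -1.05, and S1pr1, a sphingosine phosphate receptor of ECs, -0.72.

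In the remaining lists, the caveolae genes Cavin3 and Ehd2 were at 0.97 and 0.95, and Ehd4 at 0.77. Vcam1, the adhesion molecule of activated ECs, was at -1.47, Tmsb10 at 0.51 and Slc38a5, a glutamine transporter, at -0.63. The arterial list held Clu (-1.86) and Edn1, endothelin-1 (-0.57), and the interferon list H2-Q4 (-0.94) and Ifit1 (-1.40). Ankrd37, a hypoxia-induced gene, was at -0.96, and the immediate early genes Jun and Ier3 at -0.86 and -1.02. Translation genes lay between 0.37 and 0.51 for Eef2, Npm1, Rpl4 and Rpl13. Markers of other cells gave 0.40 for C1qa, -0.44 for Fcer1g and -0.34 for Tyrobp (myeloid), -1.33 for Slc1a3 and -0.33 for Gja1 (astrocytes), -2.18 for Ttr and -1.23 for Enpp2 (choroid plexus) and -2.67 for Hbb-bs (erythrocytes).

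**Figure D4:**
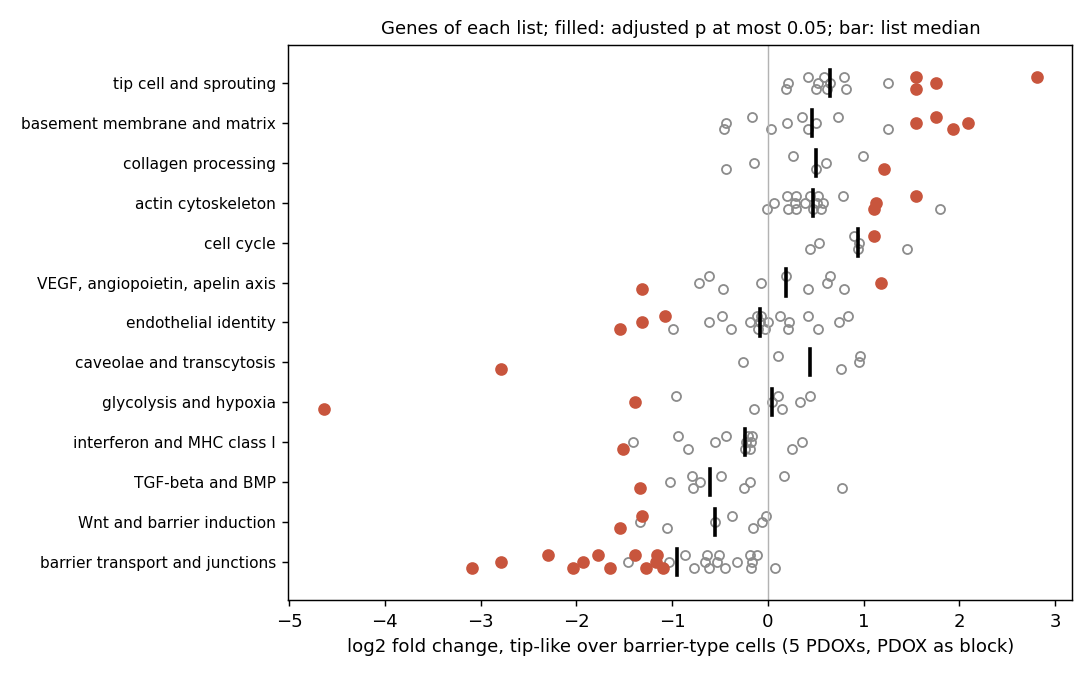
Log2 fold change of tip-like over barrier-type cells (x axis) for each tested gene of 13 lists (y axis), from the fit over 5 PDOXs. Filled points passed the adjusted p of 0.05, open points did not, and black bars are list medians, which run from -0.95 for barrier transport to 0.94 for the cell cycle.

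These counts depended on single PDOXs. Without P13, 4 genes were higher and 16 lower. Without T16 there were 10 and 31, and without T101 15 and 48. Without both P13 and T16, an alternative chosen after seeing the data, no gene was called (116 had an unadjusted p under 0.05 in edgeR). Without P13, Lamc1, Lama4 and Trp53i11 stayed called. Leaving out cells with 2 or more summed UMIs of the exclusion genes gave 42 higher and 105 lower, of which 16 and 69 were also called with all members.

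Cell cycle genes were more frequent in the tip-like cells of P13. With every cell thinned to 500 UMIs, 55 of 187 tip-like cells of P13 (29.4%, exact 95% binomial interval 23.0 to 36.5%) held UMIs of at least 2 of 28 cell cycle genes, against 22 of 417 barrier-type cells (5.28%, interval 3.34 to 7.88%). In T16 these were 6 of 77 (7.79%, interval 2.91 to 16.2%) and 10 of 287 (3.48%, interval 1.68 to 6.31%). Without thinning, the shares were 54.5% and 11% in P13 and 14.6% and 8.84% in T16. Only these PDOXs had 20 cells of at least 500 UMIs in each class, so the mean difference of 14.2 percentage points could not pass any test (exact sign-change permutation p = 0.5, the smallest for 2 PDOXs). With at most 1 summed UMI of the exclusion genes the difference was 11.7 points, and with cells thinned before the rule was applied it was 5.49 points. With no UMI of mural or fibroblast markers it was 11.6 points, without the p of 0.5 that 2 PDOXs of the same direction give (exact sign-change permutation). The part of free RNA and of doublets in these shares was not tested.

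The smaller PDOXs gave no single direction. In P3, 0 of 16 tip-like and 9 of 91 barrier-type cells were scored as cycling after thinning. P8 had 1 of 12 tip-like (8.33%) and 2 of 105 barrier-type cells (1.9%), and T101 1 of 12 (8.33%) and 4 of 109 (3.67%). A share of 8.33% is thus a single cell there. In the fit over all genes, Mki67, the proliferation antigen, was at 213 CPM in P8, 179 in T101, 21 in P3, 139.6 in T16 and 406 in P13 in tip-like cells and 151 CPM in P8, 119.8 in T101, 12.7 in P3, 37.7 in T16 and 195 in P13 in barrier-type cells, higher in 5 of 5 PDOXs, with a single UMI behind the tip-like value of P3 (log2 fold change 1.11 ± 0.29 (SE, n = 5 PDOXs), adjusted p = 0.0437, edgeR). With at most 1 summed UMI of the exclusion genes its call was lost (0.58, adjusted p = 0.603). The other 6 cell cycle genes tested were not called (Tpx2 1.45, Top2a 0.90, Prc1 0.94), with a list median of 0.94.

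Tip-like cells of P3, T16 and P13 were finally compared with those of P8 and T101, the more invasive PDOXs with at least 10 such cells. Of 1276 genes tested, none was higher and 7 (0.549%) were lower in the angiogenic models (edgeR quasi-likelihood test, adjusted p at most 0.05), with 109 at an unadjusted p under 0.05. DESeq2 called 1 gene higher and 14 lower, the 7 among them. In 429 of the 1276 genes (33.6%) the groups did not overlap. The 7 genes were Gbp2, Gbp3, Gbp4, Gbp5, Gbp7, Iigp1 and Cp. Guanylate-binding proteins (Gbp) and the immunity-related GTPase Iigp1 are induced by interferon-gamma and act against intracellular pathogens, and Cp, ceruloplasmin, is a ferroxidase of the acute phase.

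Iigp1 was at 1432 CPM in P8, 2254 in T101, 62.8 in P3, 84 in T16 and 144 in P13 in tip-like cells (log2 fold change -4.14 ± 0.54 (SE), adjusted p = 0.0368, edgeR). Gbp5 was at 429.5 CPM in P8, 992 in T101, 62.8 in P3, 24 in T16 and 49.1 in P13 (log2 fold change -4.03 ± 0.57 (SE), adjusted p = 0.0368, edgeR). Gbp2 was at 429.5 CPM in P8, 1939 in T101, 83.8 in P3, 24 in T16 and 69.6 in P13 (log2 fold change -4.38 ± 0.76 (SE), adjusted p = 0.0482, edgeR), Gbp4 at 620.4 CPM in P8, 1713 in T101, 62.8 in P3, 12 in T16 and 74.2 in P13 (log2 fold change -4.50 ± 0.75 (SE), adjusted p = 0.0482, edgeR) and Gbp7 at 1193 CPM in P8, 3111 in T101, 83.8 in P3, 204 in T16 and 223 in P13 (log2 fold change -3.59 ± 0.61 (SE), adjusted p = 0.0482, edgeR). T101 was the highest PDOX for each of these 5 genes and P8 the next. The Gbp genes are close paralogs, so reads may have been split between them.

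The 6 interferon-induced genes were also highest in T101 and next in P8 in barrier-type cells, where no gene was called in the same contrast (0 of 3704 tested, with 256 at an unadjusted p under 0.05 in edgeR, chosen after seeing the data). Iigp1 was at 343 CPM in P8, 1031 in T101, 50.5 in P3, 118 in T16 and 151 in P13 there (log2 fold change -2.61, adjusted p = 0.233), and Gbp5 at 198 CPM in P8, 675 in T101, 25.3 in P3, 62.5 in T16 and 117 in P13 (-2.54, adjusted p = 0.385). Whether tip-like cells differ from barrier-type cells in this contrast was not tested. Cp was at 1909 CPM in P8, 1398 in T101, 230.4 in P3, 264 in T16 and 147 in P13 in tip-like and 296 CPM in P8, 869 in T101, 505 in P3, 377 in T16 and 473 in P13 in barrier-type cells.

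This comparison was fragile. It rests on 15 tip-like cells each in P8 and T101, P8 was the FACS-sorted PDOX, and without T101, P3 or T16 no gene was called. Without P8 there were 10 called genes, 3 of them among the 7. In members past the threshold by 2 or more UMIs there were 7, none of them the same, in a fit that also lacked T101. With P8 or T101 missing, the more invasive side is 1 library, assumed to vary like the 3 of the other side. In members that also had at least 500 detected genes, or at least 3 EC genes, no gene was called, in fits that lost T101 and P8 for having fewer than 10 such cells. Of the 18 genes of the interferon and MHC class I list, 9 were tested here and none was called (median log2 fold change -1.24 against 0.07 over all 1276 genes). The lists for tip cells (10 tested), basement membrane (12) and barrier transport (22) had no called gene and medians of 0.04, -0.03 and 0.53. Markers of other cell types had no called gene either, with median log2 fold changes of 2.11 for 6 myeloid, 2.69 for 2 ependymal and choroid plexus and -0.70 for 4 mural markers, and -1.85 for the 1 fibroblast marker tested. Summed mural markers were at 13914 CPM in the tip-like cells of P8, 1866 in T101, 1498 in P3, 2166 in T16 and 5560 in P13, and myeloid ones at 533 in P8, 3401 in T101, 19528 in P3, 846 in T16 and 1035 in P13. The part of these in the 7 genes was not tested.

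**Figure D5:**
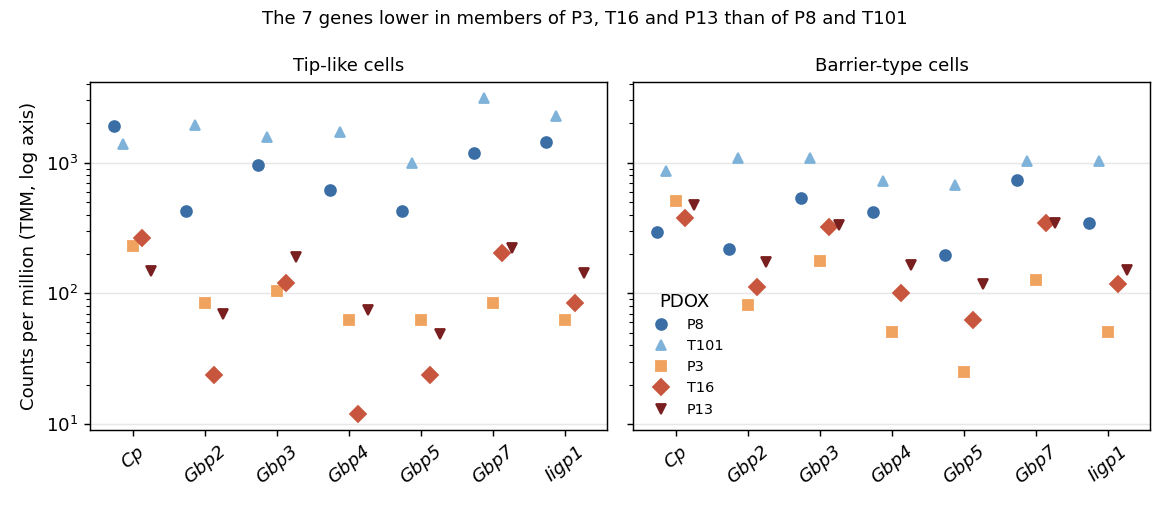
Summed CPM (TMM-scaled, log y axis) of the 7 genes (x axis) lower in tip-like cells of P3, T16 and P13 than of P8 and T101, in tip-like cells (left) and barrier-type cells (right), 1 symbol per PDOX. In tip-like cells both P8 and T101 lie above the other 3 PDOXs for each gene, and in barrier-type cells Cp does not separate them.

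After temozolomide, tip-like cells were 10 of 150 (6.67%, interval 3.24 to 11.9%) of the ECs of P3, against 35 of 243 (14.4%, interval 10.2 to 19.5%) without it. The intervals overlap, and with 1 xenograft a side there was no test. Among genes that chose the cells, given as a description, Angpt2 gave 3 UMIs (185 CPM, interval 38.1 to 539.7) in the 10 treated tip-like cells and 34 UMIs (554 CPM, interval 383 to 774) in the 35 untreated ones, with exact 95% Poisson intervals that cover counting error only. Apln gave 2 UMIs (123 CPM, interval 14.9 to 445) and 36 UMIs (586 CPM, interval 411 to 812). Lamb1 gave 0 UMIs in the treated and 28 UMIs (456 CPM, interval 303 to 659) in the untreated cells, and Plvap, the other way, 3 UMIs (185 CPM, interval 38.1 to 539.7) and 0 UMIs. Of the remaining genes of the tip set, Col4a1 was at 677 against 847 CPM, Col4a2 at 800.3 against 1042 and Esm1 at 123 against 163, with overlapping intervals. In barrier-type cells Apln was also lower after treatment, at 13 CPM (interval 1.57 to 46.8) against 129 CPM (interval 82.4 to 191). There Angpt2 was at 32.4 against 69.7 CPM and Lamb1 at 25.9 against 96.5, with overlapping intervals.

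The 20 genes named for the comparison with barrier-type cells, a choice that used the untreated cells of P3, were compared between treated and untreated tip-like cells of P3, and the intervals did not overlap for 3. These were Mgp, with 22 UMIs (1354 CPM, interval 849 to 2050.5) after treatment, all in 2 cells, against 21 UMIs (342 CPM, interval 212 to 523), Slc6a6, with 8 UMIs (492 CPM, interval 213 to 970.4) against 1 UMI (16.3 CPM, interval 0.412 to 90.7), and Cxcl12, with 6 UMIs (369 CPM, interval 136 to 804) against 1 UMI (16.3 CPM, interval 0.412 to 90.7). All 3 were also higher after treatment in barrier-type cells, with intervals that did not overlap. There Mgp was at 454 CPM (interval 354 to 573) against 155 CPM (interval 104 to 223). Slc6a6 was at 467 CPM (interval 365 to 588) against 209 CPM (interval 149 to 286), and Cxcl12 at 836 CPM (interval 698 to 994) against 456 CPM (interval 364 to 563). Of the 20 genes, 14 had 3 UMIs or fewer in the treated members, so most differences were not detectable at this depth. Treated tip-like cells also held more CPM of mural (4186 against 1498), fibroblast (431 against 65.1), ependymal and choroid plexus (10835 against 3583) and erythrocyte markers (4494 against 0). Myeloid markers were lower, at 16191 against 19528 CPM, as were astrocyte markers, at 246 against 293. Their median was 926 UMIs per cell, against 476 in untreated ones. The part of these in the 3 genes was not tested.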

How the data were processed

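The deposited files are UMI counts per gene and cell, 1 table per library. Per the study's methods and the submitters' processing notes, the authors demultiplexed the reads with bcl2fastq 2.0, aligned them with STAR to GRCm38 (mm10) and counted UMIs, and the values are not normalized. Depth per library ranged from 1294068 to 8410580 UMIs. Barcodes with fewer than 200 genes or more than 30% of UMIs from mitochondrial genes were left out, and doublets were not removed. "At most 1" of the exclusion genes was read as a number of genes.

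Counts were summed per PDOX and class where both classes had at least 10 cells, and tested with edgeR 4.0.16 in R 4.3.3 (TMM, filterByExpr, quasi-likelihood, Benjamini-Hochberg) over 13303 genes listed in all 5 files. The SE printed with a log2 fold change is the absolute log2 fold change divided by the square root of its quasi-likelihood F statistic. It was derived in this way because the test itself returns none. Shares were compared by exact permutation tests (scipy 1.17.1). Alternatives included DESeq2 1.42.0, other cell filters, thinning to 500 UMIs and leaving out each PDOX. Tested on simulated data of 2709 genes, the comparison with barrier-type cells recovered 49 of 49 genes raised 4-fold (100.0%) and 34 of 35 lowered 4-fold (97.1%). Of genes changed 2-fold, it recovered 28 of 50 raised (56.0%) and 18 of 39 lowered (46.2%). Over 1110 genes, the comparison between members of the PDOX groups recovered 18.0% and 42.9% of 4-fold and 0% and 3.23% of 2-fold changes. Changed genes that were filtered out before the test, mostly lowered ones, are not counted in these shares, which are thus too high for lowered genes. The simulated counts had a common dispersion and no differences in level between PDOXs, unlike the data.

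The members and gene lists were chosen with earlier results of these data known. Named genes were the 10 called genes with the largest rise and the 10 with the largest fall among those with a mean of at least 50 CPM in either class and the same sign in every PDOX, up to 4 genes per list by p, and up to 5 per direction between PDOX groups. Other called genes, such as Gbp3 and Cp, were named after their values were seen. Some genes that the rule names are not reported here.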

Additional observations from a re-analysis of the deposited data

Results flagged for a closer look

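In 4 of 24 groups of PDOX values tested by Dixon's rule, 1 PDOX lay far from the rest, where chance flags about 1 in 20. P13 had a median of 3667 UMIs per tip-like cell (others 476 to 1310) and of 1070 per barrier-type cell (others 490 to 738.5). The log2 ratio of tip-like to barrier-type cells of Trp53i11 was 8.74 in P8, where barrier-type cells held none, and 1.19 to 2.97 elsewhere. That of Edn3, endothelin-3, was -8.25 in T101, where tip-like cells held none, and -3.63 to -2.18 elsewhere. With 0 UMIs on 1 side, the size of both ratios, and so their distance from the others, is set by the 1 CPM (UMIs scaled to a common total per library) added before the log and is not a measured size.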

How the results depend on the processing

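The counts of called genes depended on the cells and PDOXs kept. The 30 genes higher in tip-like cells became 13 with no UMI of mural or fibroblast markers, 12 with at least 500 detected genes per cell, 48 without the highest 5% of barcodes, 5 in thinned cells, 88 without a filter on low counts, 9 at an adjusted p of at most 0.01 with a log2 fold change of at least 1, and 4 to 35 when 1 PDOX was left out (4 without P13, 10 without T16, 15 without T101). The 86 lower genes became 42 with at least 500 genes, 27 in thinned cells, 221 without the filter, 35 at the stricter threshold, and 16 without P13, 31 without T16 and 48 without T101, with the other PDOXs left out moving it by less than 1.5 times. Without P13 and T16 together (chosen after seeing the data), both counts were 0. The fits with no mural or fibroblast UMI, with at least 500 genes and with a margin of 2 UMIs lacked T101, and those of thinned cells and of at least 3 EC genes lacked P8, each with fewer than 10 tip-like cells left. DESeq2 gave 26 and 73, of which 23 and 71 were shared.

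The 7 genes of the comparison between PDOX groups became 12 with at most 1 summed UMI of the exclusion genes (6 of the 7 among them), 18 with no mural or fibroblast UMI (4), 0 with at least 500 genes or at least 3 EC genes, 4 in thinned cells (1), 15 in DESeq2 (7), 38 without the filter (6), 0 at the stricter threshold, and 0 to 11 when 1 PDOX was left out (11 without P13, 6 of the 7 among them). The difference in shares was 16.4 points with at least 500 genes, 17.1 in MACS-sorted PDOXs, 14.7 with T192 and T233 as 1, and 10.7 to 18.3 when 1 PDOX was left out (14.38 without T233), none of which passed the threshold. Apart from the first (p = 0.0571, permutation), these designs allow no exact permutation p below 0.0667 or 0.1 and could not pass. Other filters gave 12.6 to 15.5 points. Mgp turned to -1.34 with at most 1 summed UMI. Over 314 pairs of a named gene and an alternative, 275 kept their direction and call and 38 lost the call. The cause of these changes was not tested, beyond the fewer cells and genes that each setting leaves. T192 and T233 summed held too few tip-like cells for a fit, and leaving out P13 or T16 leaves 1 PDOX for the cycling shares. No paired analysis was possible because the groups share only replicate number 1, given in accession order, and the comparison of classes already has PDOX as a block.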
